A study of Mus musculus with 3 samples.

Results

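The guanylate-binding proteins of the mouse were followed through 10 gene names, Gbp2, Gbp3, Gbp4, Gbp5, Gbp6, Gbp7, Gbp8, Gbp9, Gbp10 and Gbp11. The members were taken by name, with every probe that carries one of these names, and not by their values. They were measured by 12 of the 56605 probes on the arrays and make up 10 of 36870 gene names. Gbp5 and Gbp8 had 2 probes each and the other 8 genes had 1 each.

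RNA came from RAW264.7, a mouse macrophage cell line, and was hybridised to 1-colour Agilent arrays with 1 array per condition. The LPS group was stimulated for 3 h with lipopolysaccharide (LPS), the cell wall component of Gram-negative bacteria that activates TLR4. The LOC1+LPS group and the LOC3+LPS group received the same 3 h of LPS after exposure to LOC1 or LOC3, strains of *Lactiplantibacillus plantarum* isolated from fresh tea leaves. Exposure to the lactobacilli lasted 12 h by the labels, whereas the methods give a longer time. All 3 groups therefore carry LPS, and no group with lactobacilli alone was analysed here. The array of unchallenged macrophages was not analysed here either, so the comparison with it rests on the log2 ratios that the authors deposited.

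Guanylate-binding proteins are large GTPases of the dynamin family, and interferons are the best-known inducers of their genes. In macrophages they gather on bacteria and on the vacuoles around pathogens, bind LPS on the bacterial surface and help inflammatory caspases to reach it. In the mouse they are encoded by a cluster on chromosome 3 and another on chromosome 5. The promoters of these genes are known for interferon-stimulated response elements (ISREs), which are bound by interferon regulatory factors.

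The ISRE stands in the promoters of the chromosome 3 genes, and its place is shown as background to the family. RefSeq promoter sequences of build GRCm38.p6, 300 bases each, covered 4 of the 10 members, Gbp2, Gbp3, Gbp5 and Gbp7, as well as Gbp2b, the neighbouring family gene outside the member list. No member on chromosome 5 was covered, so promoters there were not searched. The 5 genes covered had 6 promoter windows, since Gbp3 had 2. The ISRE letters, GAAA followed by any 2 bases and a second GAAA, were searched on both strands and stood in 5 of the 6 windows and in all 5 genes, against 3.43% of the 32817 promoters. In the stretches printed here, all from the plus strand of chromosome 3, capitals mark the match, which reads TTTC, any 2 bases and TTTC on this strand.
Gbp2, chr3:142620569-142620648: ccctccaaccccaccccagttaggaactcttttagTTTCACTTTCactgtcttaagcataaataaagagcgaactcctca
Gbp3, chr3:142559964-142560043: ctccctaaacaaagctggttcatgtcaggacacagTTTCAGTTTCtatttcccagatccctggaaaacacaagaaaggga
Gbp5, chr3:142496734-142496813: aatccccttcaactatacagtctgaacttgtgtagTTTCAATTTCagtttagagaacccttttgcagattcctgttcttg
Gbp7, chr3:142530248-142530327: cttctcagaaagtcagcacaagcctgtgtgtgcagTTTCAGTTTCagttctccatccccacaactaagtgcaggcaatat
Gbp2b, chr3:142594675-142594754: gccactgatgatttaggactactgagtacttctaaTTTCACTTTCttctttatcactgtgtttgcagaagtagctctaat

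The match began 59 bases before the start site in Gbp2, 53 before it in Gbp7, 45 in Gbp3, 137 in Gbp2b and 165 in Gbp5. In Gbp3 a second match began 39 bases before the start and overlapped the first. The letters TTCNNNGAA of the gamma-activated site, another element of interferon-inducible promoters, were found 2 times each in the Gbp5 and Gbp7 windows and in no other window of the family. This motif stood in 8.29% of all promoters. These matches describe letters in a window and do not show that a factor was bound. Their part in the differences between the arrays was not tested.

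The probes bear on how the values can be read, so the first 30 of the 60 bases are shown for the brighter Gbp5 probe, for both Gbp8 probes, for the other probes that named more than 1 gene, and for Gbp11, the member furthest from LPS. Positions of the whole probe are those of mouse build mm9 in the file headers.
Gbp5, brighter probe, chr3:142184779-142184838, plus strand: gtaaagtttaaaaatgatttctcactattc
Gbp8, brighter probe, chr5:105443767-105443826, minus strand: cacacagaagacatagaacagctcctacat
Gbp8, dimmer probe, chr5:105443951-105444010, minus strand: gagaagttgcttcatttattttttctccca
Gbp9, chr5:105523238-105523479, minus strand: gagcagctgcattatgtcacagaactcact
Gbp10, chr5:105644753-105644812, minus strand: aatatgatttatttaaggtgtacccacccc
Gbp11, chr5:105752145-105752204, minus strand: ctggaaactacttaaacatccctgagttag

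The transcripts that the array lists for a probe can belong to more than 1 gene. The brighter Gbp8 probe was listed with transcripts of Gbp8 and Gbp11, the Gbp10 probe with those of Gbp6 and Gbp10, and the Gbp9 probe with those of Gbp4, Gbp6, Gbp9 and Gbp10. The values of Gbp8, Gbp9 and Gbp10 are therefore uncertain as to the gene they come from. The Gbp9 probe covers 242 bases of the genome with its 60 bases, so that it spans a gap in the alignment. The dimmer Gbp5 probe was listed with no RefSeq transcript. No pair of the family's probes shared a run of more than 9 bases. The guanine and cytosine content of the brightest probes of the members had a median of 35.8%, against 41.7% over all probes, and was 53.3% for the dimmer Gbp5 probe.

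In the RefSeq annotation, Gbp2, Gbp3, Gbp5 and Gbp7 lay within 141 kb of chromosome 3 and the other 6 members within 334 kb of chromosome 5. RefSeq classes 9 of the members as protein coding and Gbp11 as a transcribed pseudogene.

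Intensities were put on the log2 scale, less each array's own 75th percentile, and the brightest probe stood for its gene. All 12 probes were well above background on all 3 arrays, and none was saturated, with a highest member intensity of 41593 against 425095 for the brightest probe on the arrays. With 1 array per condition no spread between cultures and no test can be given, and the number of arrays limits the precision. What can be given is error within an array. Among probes printed 10 times, the log2 difference between arrays had a technical SD of 0.06 in bright probes, and of 0.29 to 0.33 for the dim class that holds the dimmer Gbp8 probe and the Gbp10 probe. The error that the scanner software attaches to each spot, which includes a 10% multiplicative term, gave an SD of 0.20 to 0.22 for each log2 difference of the family. Since the RNA came from whole cultures, fewer cells of a kind and less RNA per cell cannot be told apart. Of the macrophage markers, 10 of 10 on the array were well above background on all arrays and 0 differed 2-fold with either strain, with log2 differences from -0.89 for Csf1r to 0.66 for Mertk with LOC1. Their summed intensity was 509740 with LPS, 410676 with LOC1+LPS and 445765 with LOC3+LPS. Of 18 markers of T, B and natural killer cells, dendritic cells, neutrophils, fibroblasts and epithelium, 6 were well above background on all arrays and 8 on none, among them Ncr1 and Ly6g. The summed intensity of these 18 was 1620, 1239 and 1195 in the same order. Among them Xcr1, a dendritic cell marker, was lower by at least 3.15-fold after LOC1 and at least 2.32-fold after LOC3, Zbtb46, another, had log2 differences of -0.77 and -0.97, and Ms4a1, a B cell marker, was 2.08-fold higher with LOC1. The part of these markers in the differences of the family was not tested.

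The first comparison asks how far LPS raised these genes over unchallenged macrophages. In the deposited log2 ratios, all 10 members had a probe listed as higher with LPS. For Gbp8, Gbp9 and Gbp10 that probe was listed with transcripts of other members too, so the listing may not be their own. The ratio of the brightest probe ran from 1.49 for Gbp10 to 10.78 for Gbp5, with a median of 7.42. Being listed at 2-fold or more held for 9.7% of all gene names and for 13.6% of those well above background with LPS. A log2 ratio of 4 or more was reached by 8 members, against 1.74% of the gene names well above background with LPS. The signal of unchallenged macrophages that a ratio implies was at times too low to be measured: the dimmest probe that still passed the background test with LPS had an intensity of 16.3. A fold is then given as a bound taken from that signal.

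On chromosome 3 all 4 members had deposited log2 ratios over 7. Gbp2, whose protein carries a lipid anchor and opens pathogen vacuoles and bacteria, was listed at 8.08, which is 271-fold. Gbp3 was listed at 7.65, or 200.3-fold, and Gbp7, known for its part in oxidative killing, at 7.53, or 185-fold. Gbp5, which also carries a lipid anchor and promotes inflammasome activation, had the ratio of 10.78 in its brighter probe. The implied unchallenged intensity was 10.6 there, so the bound is at least 1147-fold. The dimmer Gbp5 probe was listed at 2.25, or 4.77-fold, which makes the pair differ in size though not in direction.

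The 6 members on chromosome 5 spanned a wider range, with a median log2 ratio of 4.22 against 7.87 on chromosome 3. Gbp4 was listed at 7.44 and Gbp6 at 7.40, and with implied unchallenged intensities of 11.1 and 8.28 their bounds are at least 118-fold and at least 85.8-fold. The pseudogene Gbp11 was 19.2-fold higher at a log2 ratio of 4.27, and the Gbp9 probe 18.0-fold at 4.17. The smallest ratios were those of the brighter Gbp8 probe, with 2.62 or 6.15-fold, and of the Gbp10 probe, with 1.49 or 2.80-fold. The dimmer Gbp8 probe, listed with Gbp8 transcripts only, has no ratio, and ratios under 2-fold were left blank. The Gbp10 spot was not found by the scanner software on the LPS and LOC3+LPS arrays, and its surroundings were marked there as outliers, so its values are the least certain of the family.

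**Figure D1:**
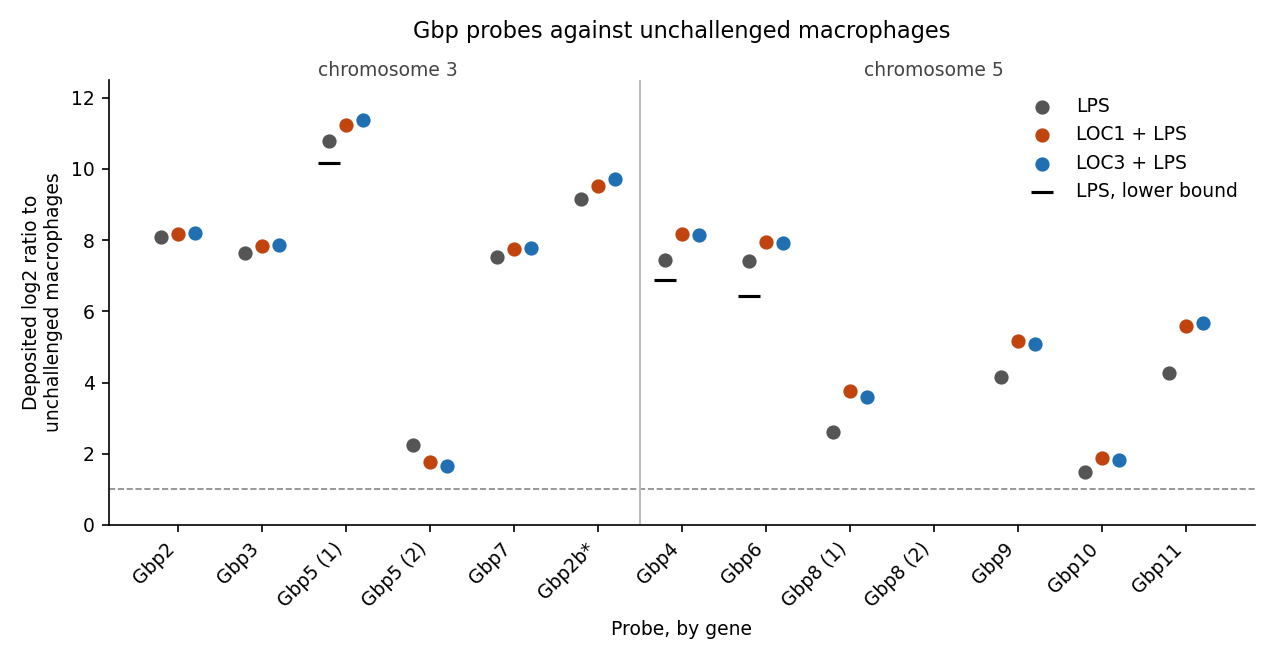
Deposited log2 ratio to unchallenged macrophages for each probe of the family, with genes on the x axis, 1 point per group and black bars for the lower bounds in LPS. The members' LPS points run from 1.49 for Gbp10 to 10.78 for the brighter Gbp5 probe, the dimmer Gbp8 probe has no value, the dashed line is 2-fold, and the asterisk marks Gbp2b, which is no member.

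With LOC1 or LOC3 before LPS, the log2 ratio to unchallenged macrophages was listed for all 10 members as well. Its median was 7.79 with LOC1+LPS and 7.81 with LOC3+LPS. These columns share the unchallenged reference with the LPS column. They hold ratios, higher or lower, for 9325 and 9569 probes, against 7576 with LPS. The share of gene names listed as higher in them was not computed.

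The next comparison asks whether exposure to LOC1 or LOC3 altered the response of these genes to LPS. Both strains were compared with the same LPS array, so the pair of comparisons is not independent. With LOC1 the brightest probes of the members differed from LPS by 0.04 to 1.29 on the log2 scale, with a median of 0.47. With LOC3 they differed by 0.08 to 1.35, with a median of 0.51. The medians over all genes compared were 0.00 and 0.03. The brightest probes of all 10 members lay above 0 with each strain, against 50.1% of genes with LOC1 and 54% with LOC3, except that Gbp2 lay at -0.04 with either strain under quantile normalization and at -8.48e-05 with LOC1 when scaled over probes detected on all arrays. Gbp5 lay at -0.05 with either strain when its probes were averaged.

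Few of these differences were large. With LOC1 2 of the 10 members were at least 2-fold higher, Gbp8 and Gbp11, against 2.5% of all genes compared. Gbp8 fell to a log2 difference of 0.92 under another background correction. With LOC3 it was 1 of 10, Gbp11, against 3.02%. Gbp8 with LOC3 and Gbp9 with LOC1 fell just short, each with a log2 difference of 0.95. Gbp4, Gbp8, Gbp9 and Gbp11 were at least 1.5-fold higher with each strain, 4 of 10 against 7.7% of genes with LOC1 and 7.87% with LOC3. In 6 members the brightest probe lay more than 2 SDs of the scanner error model above 0, with either strain. That SD covers error within the arrays only, and the share of all genes past it was not computed. The 6 include Gbp5, whose dimmer probe went the other way.

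**Figure D2:**
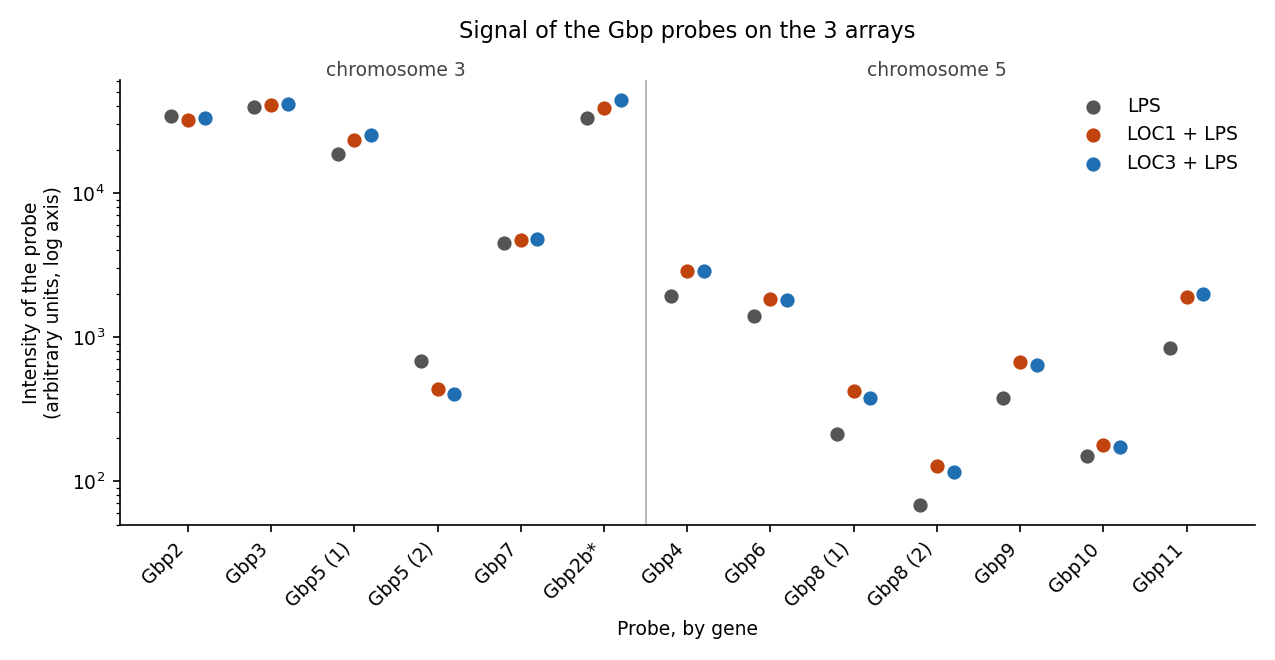
Intensity of each probe of the family on a log axis, with 1 point per array for LPS, LOC1+LPS and LOC3+LPS, and Gbp2b marked by an asterisk. The points of a chromosome 3 gene lie close together except in the Gbp5 probes and Gbp2b, whereas the LPS point lies below the other points in every chromosome 5 probe; heights of different probes are not levels of transcript that can be set against each other.

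On chromosome 3 Gbp2, Gbp3 and Gbp7 stayed near the LPS array. The Gbp2 probe read 34066 with LPS, 32423 with LOC1+LPS and 33499 with LOC3+LPS, in units of intensity. After scaling, its log2 differences from LPS were 0.04 and 0.08, well inside the SD of 0.20. Gbp3 had intensities of 39712, 40937 and 41593 in the same order, and log2 differences of 0.16 and 0.17. Both genes were thus among the most induced by LPS and among the least different with the lactobacilli. Gbp7 read 4484 with LPS, 4708 with LOC1+LPS and 4800 with LOC3+LPS, which gave log2 differences of 0.18 and 0.20.

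Gbp5 stood apart on chromosome 3. Its brighter probe read 18709 with LPS, 23327 with LOC1+LPS and 25475 with LOC3+LPS, and log2 differences of 0.43 and 0.55. Its dimmer probe went the other way, with 679, 437 and 404, and log2 differences of -0.52 and -0.64. Each of these differences was more than 2 times the SD of the scanner error model and larger than the technical SD of 0.06. The probes lie some distance apart in the gene, and the brighter one is the only one listed with a RefSeq transcript of Gbp5. No direction can therefore be given for the gene as a whole, and averaging the probes gave -0.05 with each strain.

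On chromosome 5 the differences were wider, and each probe was higher with both strains than with LPS. Gbp11 had the largest difference of the family, reading 842 with LPS, 1901 with LOC1+LPS and 2004 with LOC3+LPS. The log2 differences were 1.29 and 1.35, past 2-fold with each strain and also under all alternatives except the 3-fold threshold. The brighter Gbp8 probe, which can also report Gbp11, had intensities of 212, 422 and 381 and log2 differences of 1.11 and 0.95. The surroundings of its spot were marked as an outlier on the LPS array. The dimmer Gbp8 probe, which was listed with Gbp8 transcripts only, read 68.7 with LPS, 128 with LOC1+LPS and 116 with LOC3+LPS. Its log2 differences of 1.01 and 0.86 had the same direction as those of the brighter probe and nearly their size, although the software did not find its spot on the LOC3+LPS array.

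The Gbp9 probe, shared with the transcripts of 3 neighbours, had intensities of 378, 676 and 645 and log2 differences of 0.95 and 0.87. Gbp4, with its own probe, read 1930 with LPS, 2894 with LOC1+LPS and 2875 with LOC3+LPS, or 0.70 and 0.68 on the log2 scale. Gbp6 was near it, with 1399, 1850 and 1812 and log2 differences of 0.52 and 0.48. Gbp10 had the smallest difference on this chromosome. Its intensities were 151, 178 and 174 and its log2 differences 0.36 and 0.31, close to the technical SD of dim probes.

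**Figure D3:**
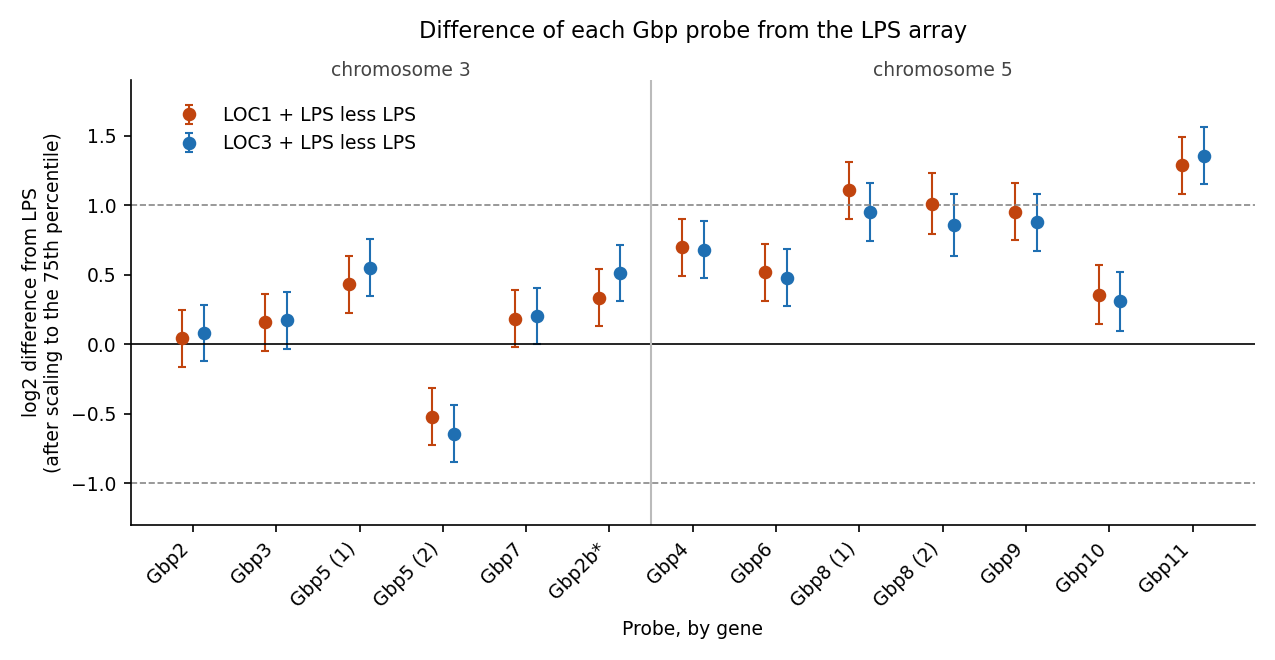
Log2 difference from the LPS array for each probe, LOC1+LPS and LOC3+LPS side by side, with bars of 1 SD of the scanner software's error model (error within the arrays only), dashed lines at 2-fold and an asterisk on Gbp2b. The chromosome 5 probes lie between 0.31 and 1.35, the members on chromosome 3 between 0.04 and 0.55 apart from the dimmer Gbp5 probe, which is below 0 with both strains.

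Set side by side, the median log2 difference with LOC1 was 0.17 for the 4 members on chromosome 3 and 0.82 for the 6 on chromosome 5. With LOC3 it was 0.19 and 0.78. The ranges overlapped, since Gbp10 on chromosome 5 lay below Gbp5 on chromosome 3. All 4 members at 1.5-fold or more were on chromosome 5. The Gbp8, Gbp9 and Gbp10 probes can also report other members of this cluster, so its 6 values may not be separate. The probes of the clusters also differed in brightness. The mean log2 signal over the arrays ran from 3.14 to 6.27 above the 75th percentile on chromosome 3, and from -1.66 to 2.26 on chromosome 5, with no overlap. Among all genes in the signal range of the chromosome 5 members, 7.47% were at least 1.5-fold higher with LOC1 and 6.31% with LOC3, around medians of 0.02 and 0.03. Among those in the signal range of the chromosome 3 members, the shares were 5.56% and 5.02%, around medians of 0.08 and 0.11. The part of brightness in the difference between the clusters was not tested.

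**Figure D4:**
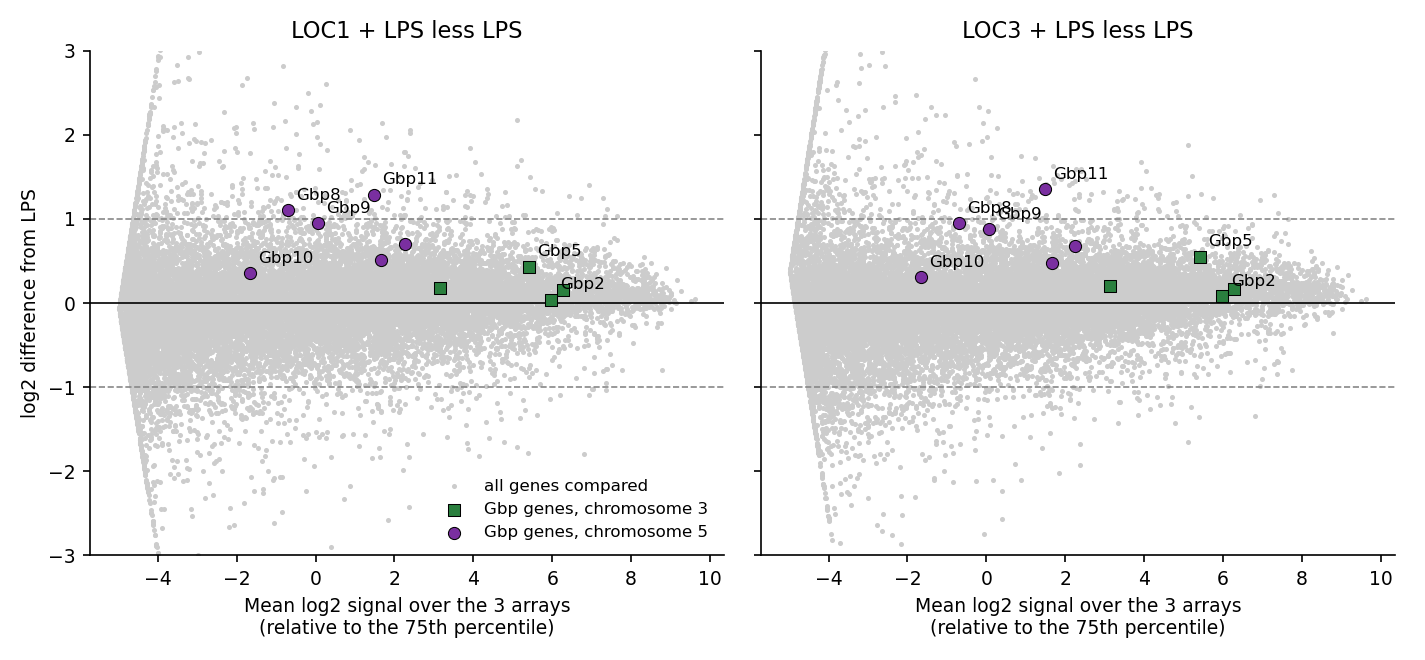
Log2 difference from LPS (y axis) against mean log2 signal over the 3 arrays relative to the 75th percentile (x axis), for LOC1+LPS on the left and LOC3+LPS on the right, with all genes compared in grey, members coloured by chromosome and dashed lines at 2-fold; a few grey points lie beyond the axis. The chromosome 5 members stand at -1.66 to 2.26 on the x axis, and 4 of them are among the higher genes there, while the chromosome 3 members stand at 3.14 to 6.27 and, on the y axis, at up to 0.20 apart from Gbp5, at 0.43 with LOC1 and 0.55 with LOC3.

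The strains themselves hardly differed in these genes. The log2 difference between LOC1+LPS and LOC3+LPS ran from -0.12 for Gbp5 to 0.16 for Gbp8, with a median of 0.00. None of the 10 members was 2-fold apart, against 2.69% of the genes compared, and none was under any alternative tried. At so low a share, 0 of 10 does not set the members apart from other genes. In 6 of the 10 the difference was smaller than the technical SD. The share of all genes for which this held was not computed. Gbp8 was the furthest in favour of LOC1, with 0.16 in its brighter and 0.15 in its dimmer probe. Gbp11, the member furthest from LPS, differed by only -0.07. With 1 array per strain, this does not show that the strains act alike.

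Gbp2b, formerly Gbp1, lies between the chromosome 3 members and is another lipid-anchored member of the family. Its probe, at chr3:142282066-142282125 of mm9 on the plus strand, read 33314 with LPS, 38870 with LOC1+LPS and 44226 with LOC3+LPS. The deposited log2 ratio of LPS to unchallenged macrophages was 9.16, or 574-fold. Its log2 differences from LPS were 0.34 with LOC1 and 0.51 with LOC3, near those of the brighter Gbp5 probe.

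Among the genes upstream of the family, the type I interferons differed most. Of the 9 interferons and interferon receptors that could be compared with LOC1, 5 were at least 2-fold higher and 0 lower. The share of all genes compared that were 2-fold higher was 2.5%. The list had a median log2 difference of at least 1.09. That median is the value of Ifna4, a lower bound since its probe was not well above background with LPS. With LOC3 4 of 8 were 2-fold higher, against 3.02% of all genes, with a median of 0.93 over genes that leave Ifna4 out. The genes past 2-fold were all type I interferons, and the Ifna1 and Ifna2 probes were each listed with transcripts of 2 genes. Ifnb1 had log2 differences of 4.69 and 3.96. Ifna5 read 42.1 with LPS, 742 with LOC1+LPS and 349 with LOC3+LPS, or 4.25 and 3.16 on the log2 scale. Ifna2 was at 3.38 and 2.48. Ifng, the type II interferon, was well above background on no array. None of the 4 receptor chains was 2-fold apart, with log2 differences of -0.66 to 0.19 with LOC1 and -0.75 to 0.18 with LOC3.

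Of the 16 signal carriers and transcription factors between receptor and promoter, 0 were 2-fold apart with either strain, and the medians were 0.21 and 0.25. The brightest of them was Irf7, an inducer of type I interferon genes, with intensities of 129038, 163951 and 184848 and log2 differences of 0.46 and 0.62. The list went both ways, with 10 of 16 above 0 with LOC1 and 11 with LOC3. With LOC1 it ran from -0.68 for Irf8 to 0.65 for Batf2, both named after their values were seen.

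The immunity-related GTPases, a family that includes other interferon-inducible GTPases acting on vacuoles, had median differences close to those of the guanylate-binding proteins. Of 13 names listed, 11 were on the array, and 9 of these lay above 0 with each strain, with medians of 0.44 and 0.46. The Tgtp2 probe was listed with transcripts of 2 genes. With each strain 1 gene was past 2-fold in each direction. The higher one was Iigp1, which disrupts vacuole membranes, with intensities of 4527, 10222 and 10859 and log2 differences of 1.29 and 1.37. It was at least 277-fold higher with LPS than in unchallenged macrophages by the deposited ratio. The lower one was Irgc1, listed by its family and not as a gene known to be induced by interferon. It was at an intensity of 128 with LPS and not well above background with either strain. The gap was at least 8.15-fold after LOC1 and at least 6.0-fold after LOC3.

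No gene of the remaining lists was called 2-fold apart. Ubd with LOC1, at least 1.29-fold higher, and Atl1 with LOC3 rest on a signal not well above background, so their full difference is not known. Among 9 very large, Mx and dynamin-like GTPases on the array the medians were 0.40 with LOC1 and 0.22 with LOC3, and the brightest on the LPS array, Gvin1, had log2 differences of 0.40 and 0.44. Among 9 inflammasome genes, which act with guanylate-binding proteins on bacterial LPS, the medians were 0.03 and 0.10, and the brightest, Il1b, was lower by the scaled signal, with log2 differences of -0.95 and -0.71. Among 6 enzymes of prenylation, which attach and trim the lipid anchor, the medians were 0.10 and 0.07, and Zmpste24 was at 0.05 and 0.08. Among genes of ubiquitin conjugation and autophagy the medians were 0.18 over 9 genes with LOC1 and 0.16 over 8 with LOC3, which leave Ubd out. Sqstm1, an autophagy receptor, was at 0.64 and 0.60. For reference, Actb was at 0.03 and 0.08 and Gapdh at 0.26 and 0.31, the latter larger than the differences of Gbp2, Gbp3 and Gbp7.

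**Figure D5:**
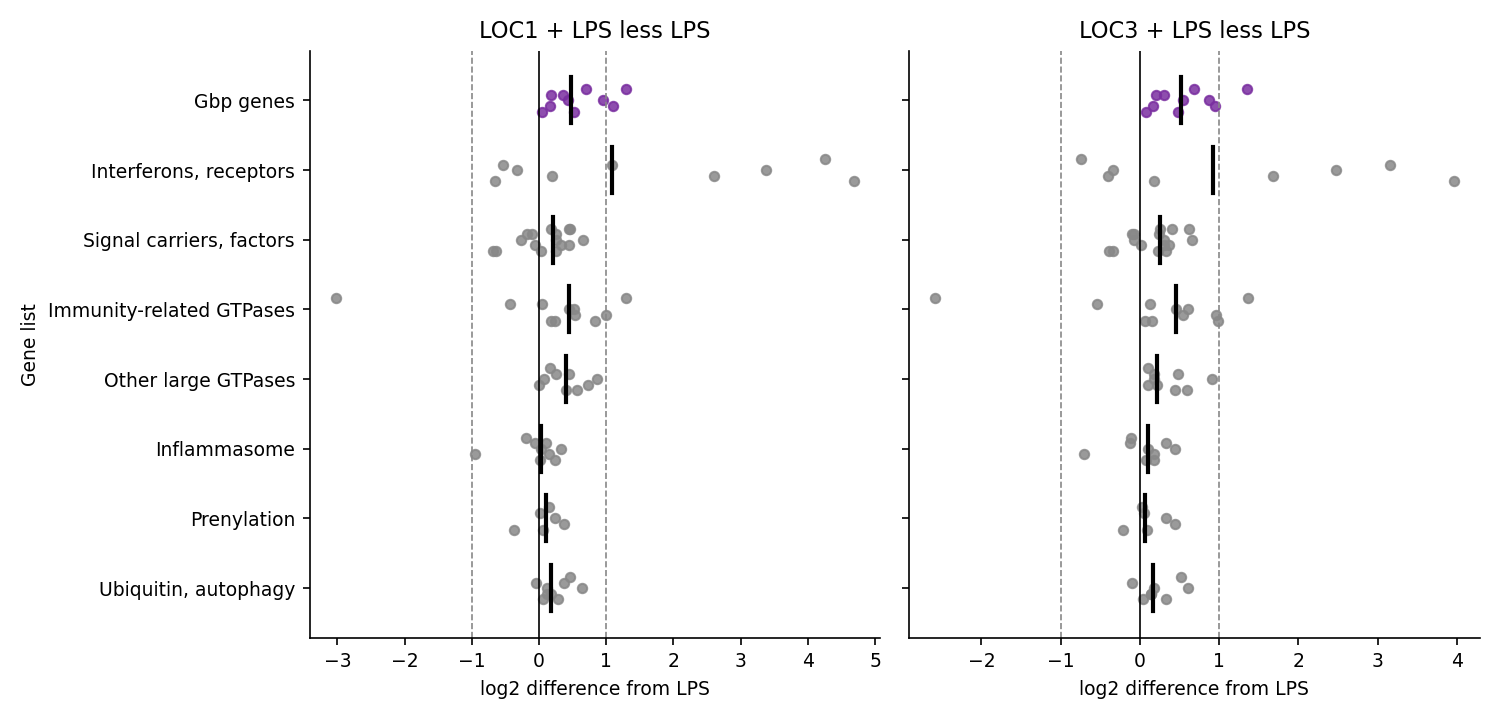
Log2 difference from LPS for the 10 members and for the genes of 7 lists, LOC1+LPS on the left and LOC3+LPS on the right, with 1 point per gene (brightest probe), a black bar at the median of each list and dashed lines at 2-fold. The brightest probes of the members, with medians of 0.47 and 0.51, lie above 0 (the dimmer Gbp5 probe, below 0, is not drawn), the interferons reach 4.69, and the lone point of the immunity-related GTPases far to the left is Irgc1, a bound.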

How the data were processed

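RNA of 3 conditions, 1 array each on 1 slide and in 1 scan, was analysed. The deposited spot intensities came from Feature Extraction 12.0.3.1, per the file headers, and the authors had subtracted background with no normalization between arrays. The authors also deposited log2 ratios to unchallenged macrophages, blank under 2-fold. From the intensities, log2 values less the 75th percentile of the array over spots that were not controls (intensities of 555 with LPS, 513 with LOC1+LPS and 516 with LOC3+LPS) were computed. Spots marked as outliers (135, 118 and 133) were left out. Genes detected (well above background) on either array of a comparison were compared by their brightest probe, and signals not well above background were raised to the lowest that was (16.3, 14.5 and 19.8). A difference of 2-fold was called. The procedure was tested on simulated data. Python 3.11.15, pandas 2.3.3, numpy 2.4.6, matplotlib 3.10.9, R 4.3.3 and limma 3.58.1 (normexp, offset 50) were used.

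The members and gene lists were chosen with earlier results of these data known. All members and Gbp2b were named, with Actb, Gapdh and, per list, up to 3 genes past 2-fold with the largest LOC1 difference, or the gene brightest with LPS where none was. Scaling, background correction, filters, probe choice and threshold were varied. Scaling over probes in place of spots, and probes listed with 1 gene only, were added after the data were seen. Cell type markers served as a check.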

Additional observations from a re-analysis of the deposited data

How the results depend on the processing

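Each condition has 1 array, so the values carry no error between cultures, and dim probes (Gbp10 and the dimmer Gbp8 probe) are limited by signal over background. No paired analysis was possible because each condition has 1 array. The count of members at least 2-fold higher with LOC1 moved from 2 to 1 under normexp background correction, to 0 at 3-fold, and to 3 under median scaling and with probes in place of genes. With LOC3 it moved from 1 to 3 under median scaling and to 0 at 3-fold. Median scaling, which moves the median of all genes to 0.22 with either strain, gave member medians of 0.69 with LOC1 and 0.70 with LOC3. Relative to the median of all genes the members then stayed at 0.47 and 0.48, as with the 75th percentile. The member median with LOC3 was 0.44 under quantile normalization and 0.39 with the mean of the detected probes. Crossings of 2-fold came from Gbp8, at 0.92 with LOC1 under normexp and 1.13 with LOC3 under median scaling, and from Gbp9, at 1.17 and 1.06 under median scaling. Of 220 values of single members under alternatives, 5 lay below 0, those of Gbp2 and Gbp5 given with the results, 182 moved by less than 0.0639, the largest technical SD of bright probes among the comparisons, 38 moved by more, and no difference past 2-fold changed sign. The count of members 2-fold apart between the strains stayed at 0 throughout. Members with a probe listed as higher with LPS numbered 10, or 9 at 3-fold, those with shared probes included. The cause of these moves was not tested.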
